A study of Mus musculus with 12 samples.

Results

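Fibroblasts with bright GFP, sorted from mouse lungs 5 days after a pneumonectomy in animals expressing a dominant-negative FGF receptor 2, were compared with bright cells taken 5 days after a sham operation. The comparison rests on 4 of the 12 arrays of the series: the 2 arrays titled bright PNX dnFGFR and the 2 titled bright SHAM. The sides differ in the operation and in the receptor together, so a difference between them cannot be given to either alone. The bright PNX group (2 arrays, the same operation without the dominant-negative receptor) and the dim PNX-dnFGFR and dim SHAM groups (2 arrays each) serve as reference values. In all groups GFP reports the gene for PDGF receptor alpha (Pdgfra), lungs were digested with dispase, and 2000 cells were sorted for each sample, whose RNA went through 25 amplification cycles before hybridization. The sources used here do not give the driver of the dominant-negative receptor, the cells that express it, the ages of the animals, or whether a sample was 1 animal or a pool. The replicates are labelled biological, and p-values measure only the spread between these samples. In sorted bulk samples, fewer cells of a type and less RNA per cell cannot be told apart.

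Pneumonectomy removes part of the lung, and the remaining lobes then grow, with division of fibroblasts and formation of new septa. FGF ligands made by fibroblasts, among them FGF7 and FGF10, bind FGF receptor 2 on epithelial cells, while fibroblasts carry FGF receptors of their own. A dominant-negative receptor takes up ligand or pairs with normal receptors without passing the signal on. PDGF receptor alpha marks lung fibroblasts, including those that store lipid beside the alveolar epithelium and those that turn into contractile myofibroblasts. According to the series' design text, regrowth and the activation of myofibroblasts are inhibited in the animals with the dominant-negative receptor.

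Values are log2 signals per gene, so 1 unit is a 2-fold difference, and 5.101 was the median of all values and the lower limit used for testing. Fgfr2 read 9.05 and 8.5 on the bright SHAM arrays and 9.38 on each bright PNX-dnFGFR array, a difference of 0.60 ± 0.36 (SE, n = 2 arrays a side, limma adjusted p = 0.363). The bright PNX arrays read 9.39 and 9.21. The sources used here do not say which part of Fgfr2 the probe set covers relative to the dominant-negative form, so these values do not check the label. The fibroblast genes Col1a1 (12.29 to 12.46) and Col3a1 (12.23 to 12.57) were among the highest signals on all 4 arrays. Pdgfra itself read 5.11 and 5.25 in bright SHAM and 5.54 and 5.29 in bright PNX-dnFGFR, below the 6.92 to 7.13 of the dim SHAM and dim PNX-dnFGFR arrays, so its signal does not follow the order of the GFP gates. RNA of other cells was also present. Sftpc, the surfactant protein C of alveolar type 2 cells, read 11.36 to 12.06 on the 4 arrays, and the endothelial gene Ramp2 10.35 to 10.68. The endothelial genes Emcn, Sox17 and Prox1, the ciliated cell gene Foxj1 and the epithelial Cdh1 were below 5.101 on all 4 arrays.

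Of 11073 genes tested, 576 passed an adjusted p of 0.05 in limma (5.2%), 288 higher (2.6%) and 288 lower (2.6%) in bright PNX-dnFGFR than in bright SHAM. At an unadjusted p below 0.05, 1343 of the 11073 were higher and 1184 lower. Counts by list below are to be read against these figures for all genes tested. Genes that rose included those for DNA replication and mitosis, inflammatory chemokines, sterol synthesis, Cthrc1 and lysyl oxidase. Genes that fell included FGF receptors and ligands, markers of alveolar fibroblasts, small leucine-rich proteoglycans and T-box and Hox factors. The higher genes had a median fold of 2.33, with 193 over 2-fold and 52 over 4-fold. The lower genes had a median fold of 2.05, with 154 over 2-fold and 4 over 4-fold. Over all genes tested the median difference was 0.02 log2.

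The number of genes called depended on single arrays. Leaving out bright SHAM replicate 2 left 5 calls, all among the 576: Cenpm, Cthrc1, Ptprn and Stmn2 higher and Scube1 lower. Without bright SHAM replicate 1 there were 106 calls, without bright PNX-dnFGFR replicate 1 there were 129, and without replicate 2 of that group 65, of which 93, 110 and 57 were among the 576. In these fits the array left alone in its group is assumed to vary like the others. Leaving out either bright PNX array, which enters only the estimate of the spread, gave 910 calls, which held all 576, and the 6 bright arrays alone gave 96.

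On the main axis of variance, replicate 1 of bright PNX lay between the groups and replicate 2 within the range of SHAM. Over the called genes both had median positions between the groups. On the first principal component of the 6 bright arrays (52.4% of the variance) bright SHAM was at -16.2 and -32.9, bright PNX-dnFGFR at 30.1 and 27.2, and bright PNX at 14.1 for replicate 1 and -22.3 for replicate 2. Over the 288 higher genes the median position of the bright PNX arrays was 57.5% and 31.5% of the way from the SHAM mean to the PNX-dnFGFR mean, and over the lower genes 51.4% and 21.3%. Side by side, the higher genes had a median of 0.55 log2 in bright PNX minus bright SHAM and 0.70 in bright PNX-dnFGFR minus bright PNX, and the lower genes -0.35 and -0.63. These 2 comparisons share arrays with the main one and are not independent of it. Each called 1 gene, Cthrc1 in the first (0.00903% of genes tested; 912 at an unadjusted p below 0.05) and Stmn2 in the second (0.00903%; 1390 unadjusted).

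The 12 largest rises were led by Serpinb2, an inhibitor of plasminogen activators. It read 1.87 and 2.02 in bright SHAM, 7.64 and 6.57 in bright PNX-dnFGFR, and 5.14 and 2.36 in bright PNX. The difference was 5.16 ± 0.70 log2 (adjusted p = 0.0108), but both SHAM values lie near the lowest of the arrays (1.5), and with values below 5.101 set to 5.101 it was 2.0. Calcb, which encodes a calcitonin gene-related peptide, went from 3.33 and 3.21 to 8.36 and 7.49 (4.66 ± 1.07, adjusted p = 0.0427; 2.83 with low values set to the limit). The bright PNX arrays split on this gene, with 7.57 in replicate 1 and 3.21 in replicate 2.

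Cdh2, the adhesion protein N-cadherin, read 4.74 and 3.96 in SHAM against 8.51 and 8.75 (4.28 ± 0.92, adjusted p = 0.0344). Aqp3, a water and glycerol channel, read 3.45 and 5.73 against 9.37 and 8.16 (4.18 ± 0.82, adjusted p = 0.0266), though its other probe sets differed by 0.44 and 1.05. Tnfrsf11b, which encodes osteoprotegerin, the decoy receptor for the RANK ligand, rose from 4.06 and 4.44 to 7.41 and 8.04 (3.47 ± 0.38, adjusted p = 0.00564), and bright PNX was between at 6.93 and 5.63. Rarres1 (3.58), the mitotic checkpoint ATPase Trip13 (3.40), the neutrophil chemokine Cxcl5 (3.22), the ubiquitin ligase Trim9 (2.98), the adhesion protein Chl1 (2.94), Stac2 (2.91) and Tesc (2.85) complete the 12. Weaker probe sets differed by 0.24 for Tnfrsf11b, 0.75 and -0.12 for Trip13 and 0.80 for Tesc. Those of Cdh2, Trim9 and Chl1 differed by 0.71 (Chl1) or more. For 8 of the 12 both SHAM arrays were below 5.101, so the sizes of these rises are uncertain at the low end: with low values set to the limit Trip13 differed by 2.04 and Stac2 by 1.75. Outside bright PNX-dnFGFR, Calcb and Cdh2 were above 5.101 on replicate 1 of bright PNX alone. They were tested only because of the bright PNX-dnFGFR arrays.

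All 12 were higher in replicate 1 of bright PNX than in replicate 2, and for 8 of them the gap was over 2 log2. Some mesothelial genes split the same arrays. The 2 with the highest signal had closer bright PNX arrays, 11.0 and 10.3 for Nkain4 and 10.24 and 10.07 for Igfbp6. Their differences from SHAM were 0.61 ± 0.40 (adjusted p = 0.402) and -0.65 ± 0.22 (adjusted p = 0.118). Bnc1, a transcription factor of mesothelial cells chosen here after its values were seen, read 3.41 and 2.35 in bright SHAM, 5.98 and 5.79 in bright PNX-dnFGFR, and 5.57 and 2.23 in bright PNX (difference 3.01 ± 0.84, adjusted p = 0.0698). Wt1, chosen likewise, read 3.29 and 2.72, then 4.64 and 6.13, then 5.55 and 2.72 (2.38 ± 0.77, adjusted p = 0.105). Of 13 measured mesothelial markers 11 had a positive difference and 0 of 10 tested were called (2 higher and 1 lower at an unadjusted p below 0.05). The mean over the list was 6.13 and 5.62 in bright SHAM, 6.4 and 6.81 in bright PNX-dnFGFR, and 7.19 and 5.16 in bright PNX. Msln and Muc16, which define these cells, were below 5.101 on all of these arrays. The part of mesothelial RNA in the largest rises was not tested.

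**Figure D1:**
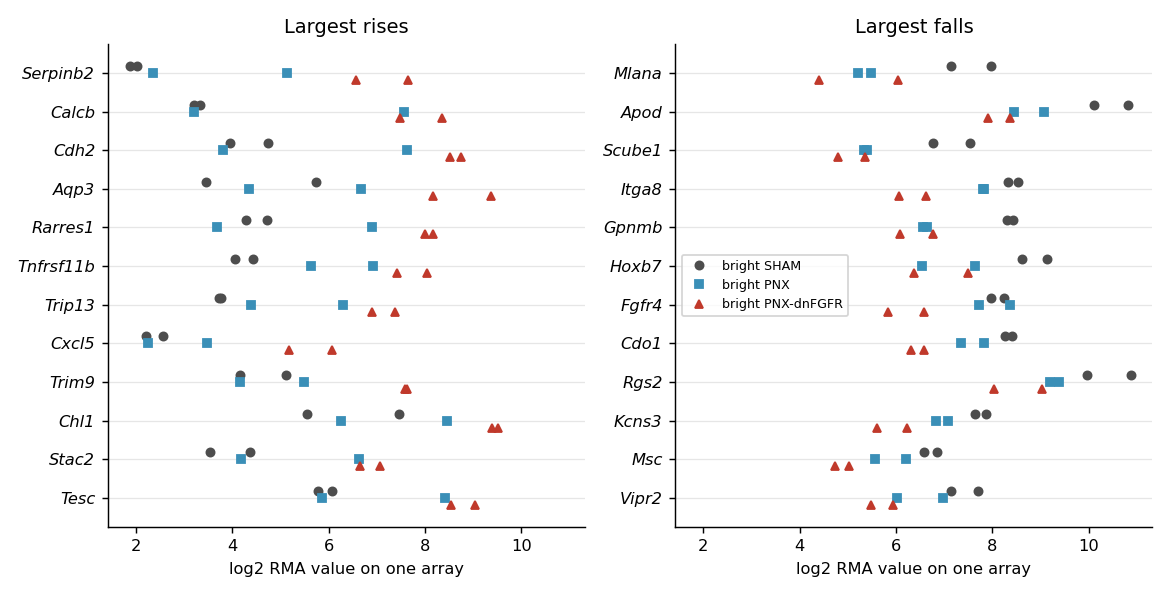
Log2 RMA values of the called genes with the 12 greatest rises (left) and the 12 greatest falls (right); each point is 1 array (circles bright SHAM, squares bright PNX, triangles bright PNX-dnFGFR, 2 arrays each). The triangles lie apart from the circles in every row because only genes without overlap of these arrays were chosen. The squares of replicates 1 and 2 lie over 2 log2 apart for 8 of the 12 rises.

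Cell cycle genes were the group with the most calls. Of 27 tested genes for DNA replication and S phase 14 rose and 0 fell, and of 38 tested mitosis genes 15 rose and 0 fell, against 2.6% higher over all genes. Over the measured members, including those too low to be tested, the median difference was 1.13 log2 for the 35 replication genes (33 above 0) and 1.17 for the 49 mitosis genes (48 above 0). With values below 5.101 set to that limit both medians were 0.95.

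The mean over the replication list was 5.56 and 5.35 in bright SHAM, 6.04 and 5.88 in bright PNX, and 6.73 and 6.48 in bright PNX-dnFGFR. For mitosis it was 5.1 and 4.94, then 5.51 and 5.4, then 6.58 and 5.93. In both lists the groups did not overlap, with bright PNX between the others and its replicates close together. In dim cells the medians of PNX-dnFGFR minus SHAM were -0.13 and -0.19. Without bright SHAM replicate 2 no member of either list was called, and without bright PNX-dnFGFR replicate 1 there were 0 replication calls and 1 mitosis call.

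**Figure D2:**
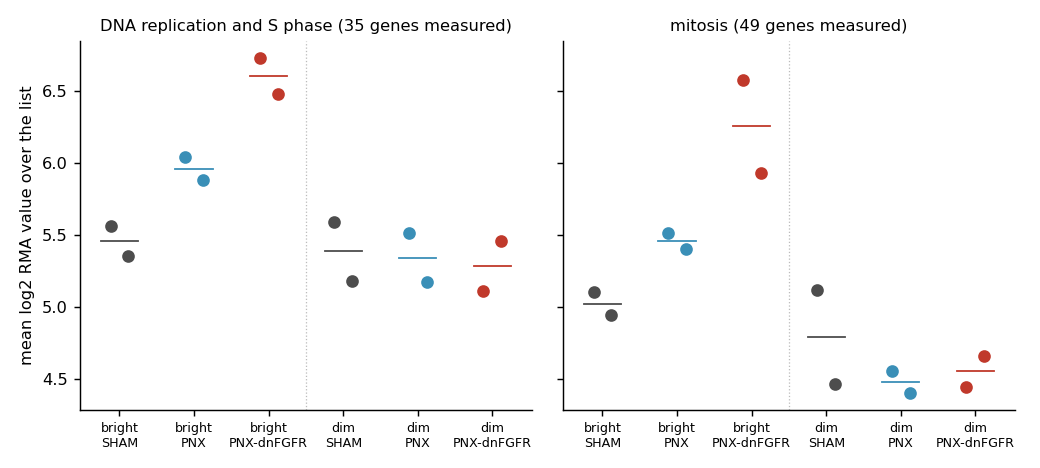
Mean log2 RMA value over the measured members of the replication list (35 genes) and the mitosis list (49 genes) on each of the 12 arrays; points are arrays and short lines are group means. The bright PNX-dnFGFR arrays are highest in both panels, at 6.73 and 6.48 and at 6.58 and 5.93, and the dim groups overlap one another in both panels.

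Uhrf1, which keeps DNA methylation in place during replication, rose from 6.01 and 5.91 to 8.04 and 7.67 (1.89 ± 0.26, adjusted p = 0.0109). Rrm1, the large subunit of ribonucleotide reductase, rose from 6.77 and 6.75 to 8.06 and 7.91 (1.23 ± 0.18, adjusted p = 0.0118). Both were intermediate in bright PNX, at 7.2 and 7.14 for Uhrf1 and at 7.61 and 7.18 for Rrm1. Tk1, the S phase thymidine kinase (2.12), Rfc3 of the clamp loader (1.39) and Mcm4 of the replicative helicase (1.13) also rose.

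Birc5, which encodes survivin of the chromosomal passenger complex, read 5.49 and 5.47 in bright SHAM, 6.35 and 5.83 in bright PNX, and 7.68 and 7.14 in bright PNX-dnFGFR (1.93 ± 0.22, adjusted p = 0.00619). Top2a, the topoisomerase that untangles chromosomes, rose from 4.73 and 4.27 to 7.18 and 6.65 (2.41 ± 0.39, adjusted p = 0.0151), although its 2 weaker probe sets differed by -0.07 and 0.17. The microtubule-binding Nusap1 (1.40, or 0.51 with low values set to the limit), the condensin subunit Ncapg (1.80) and cyclin A2, Ccna2 (2.02), rose too. Nusap1, counted among the mitosis calls, was above 5.101 on the bright PNX-dnFGFR arrays alone, so it was tested only because of them. Mki67, the proliferation marker, went from 6.2 and 5.82 to 7.99 and 7.27, and its difference of 1.62 ± 0.68 missed the threshold (adjusted p = 0.196). Of 20 tested brakes of the cycle and p53 targets, 1 rose, the kinase inhibitor Cdkn2c (0.63).

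The promoters of the 2 replication and 3 mitosis genes with the smallest p are printed because this group moved together. Each window runs from 250 bases before to 50 bases after the RefSeq start, GRCm38.p6, on the gene's strand. Capitals mark matches on either strand to the motifs searched. The core of the cell cycle homology region was searched as TTTGAA and, in a second form, as TTCGAA. The core bound by NF-Y was searched as CCAAT. The E2F site was searched in the form TTTCGCG, in a variant form TTTGGCG and in another variant form TTTCCCG. None of these motifs contains another.
Uhrf1 (chr17:56303087-56303386, plus strand): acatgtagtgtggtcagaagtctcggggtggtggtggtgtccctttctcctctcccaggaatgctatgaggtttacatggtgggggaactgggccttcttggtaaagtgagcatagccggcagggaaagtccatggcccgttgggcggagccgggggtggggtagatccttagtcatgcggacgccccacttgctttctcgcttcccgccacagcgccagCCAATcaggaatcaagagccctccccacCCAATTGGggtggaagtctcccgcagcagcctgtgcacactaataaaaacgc
Rrm1 (chr7:102441445-102441744, plus strand): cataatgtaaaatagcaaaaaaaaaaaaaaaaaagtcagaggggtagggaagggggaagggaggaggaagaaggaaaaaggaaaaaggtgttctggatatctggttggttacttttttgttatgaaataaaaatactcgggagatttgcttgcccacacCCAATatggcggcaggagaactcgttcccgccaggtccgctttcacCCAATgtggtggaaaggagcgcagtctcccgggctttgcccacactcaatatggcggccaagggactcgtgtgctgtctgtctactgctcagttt
Birc5 (chr11:117848987-117849286, plus strand): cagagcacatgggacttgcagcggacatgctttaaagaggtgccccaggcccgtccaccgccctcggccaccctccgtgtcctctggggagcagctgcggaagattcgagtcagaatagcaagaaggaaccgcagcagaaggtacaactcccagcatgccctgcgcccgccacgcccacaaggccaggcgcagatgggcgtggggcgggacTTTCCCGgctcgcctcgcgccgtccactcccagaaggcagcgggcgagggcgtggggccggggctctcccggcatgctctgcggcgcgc
Nusap1 (chr2:119618048-119618347, plus strand): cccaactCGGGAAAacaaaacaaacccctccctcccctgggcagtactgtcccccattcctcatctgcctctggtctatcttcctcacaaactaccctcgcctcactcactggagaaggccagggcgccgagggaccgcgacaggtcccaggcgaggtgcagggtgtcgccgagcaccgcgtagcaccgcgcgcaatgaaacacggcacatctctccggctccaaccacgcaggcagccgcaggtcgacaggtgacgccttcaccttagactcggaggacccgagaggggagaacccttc
Top2a (chr11:99024140-99024439, minus strand): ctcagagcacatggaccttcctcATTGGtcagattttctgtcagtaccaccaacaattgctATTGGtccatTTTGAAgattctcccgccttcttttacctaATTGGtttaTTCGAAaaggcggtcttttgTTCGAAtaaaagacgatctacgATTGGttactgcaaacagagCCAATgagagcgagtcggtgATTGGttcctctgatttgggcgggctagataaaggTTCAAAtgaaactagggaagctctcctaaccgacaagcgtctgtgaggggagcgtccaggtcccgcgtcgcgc

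The 5 windows differed in what they hold. Top2a had 4 matches to the cell cycle homology core and 6 to CCAAT, Uhrf1 had 3 CCAAT matches and Rrm1 had 2, and Birc5 and Nusap1 had 1 E2F match each with neither of the other cores. Of the 39 measured mitosis genes with a window 76.9% held the homology core, against 19.4% of 27025 promoter windows of the same length and 13.6% of the 8919 windows of genes tested, and CCAAT was held by 76.9% against 37.9% of either. Among the 30 replication genes with a window 43.3% held an E2F form, against 5.72% of all windows and 9.71% of those of genes tested, and 66.7% held CCAAT. Of the 14 called replication genes 12 had a window, and 4 of these (33.3%) held an E2F form. Of the 15 called mitosis genes 12 had a window, and 6 of these held the homology core, each together with CCAAT. Both were held by 26 of the 39 measured mitosis genes with a window (66.7%), by 7.7% of all windows and by 5.48% of those of genes tested. The called mitosis genes thus held the homology core, alone or with CCAAT, in a smaller share than the measured list. These shares describe genes listed for their role in the cycle, and a match is not a measured binding site.

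FGF receptors and ligands were among the genes that fell. Of 12 tested genes of this group 5 fell and 0 rose, against 2.6% lower over all genes. Fgfr4 read 7.98 and 8.25 in bright SHAM, 7.73 and 8.36 in bright PNX, and 6.59 and 5.84 in bright PNX-dnFGFR, a difference of -1.90 ± 0.26 (adjusted p = 0.0109). The bright PNX arrays were thus level with SHAM, with values of -0.07 for bright PNX minus bright SHAM and -1.83 for bright PNX-dnFGFR minus bright PNX. Fgfr3 fell from 9.7 and 10.24 to 8.83 and 8.58 (-1.26 ± 0.30, adjusted p = 0.0467), and Fgfr1, the main FGF receptor of fibroblasts, from 10.76 and 10.97 to 9.92 and 10.15 (-0.82 ± 0.16, adjusted p = 0.0258).

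The ligand genes Fgf10 and Fgf7 fell as well. Fgf10, needed for lung budding, read 8.83 and 8.77 in SHAM, 8.41 and 9.08 in bright PNX, and 7.94 and 7.19 in bright PNX-dnFGFR (-1.23 ± 0.30, adjusted p = 0.0485). Fgf7, the keratinocyte growth factor, read 9.28 and 9.42, then 8.65 and 9.34, then 8.52 and 7.93 (-1.13 ± 0.25, adjusted p = 0.039). In dim cells the differences of Fgfr4, Fgfr3, Fgfr1, Fgf10 and Fgf7 between the same conditions lay between -0.22 (Fgf7) and 0.09 (Fgf10). All 5 calls depended on single arrays. Those of Fgfr1, Fgfr3, Fgf7 and Fgf10 needed every array compared, and that of Fgfr4 needed replicate 2 of both groups. Over all alternative runs the differences ran from -2.28 to -1.45 for Fgfr4, -1.54 to -0.99 for Fgfr3 and -0.94 to -0.71 for Fgfr1. They ran from -1.61 to -0.86 for Fgf10 and -1.42 to -0.83 for Fgf7.

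Genes induced by FGF signalling did not move one way. Of 16 tested feedback and target genes 1 rose, Ier3 (1.47 ± 0.33, adjusted p = 0.0403), and 1 fell, Phlda1, from 10.23 and 10.29 to 9.36 and 9.5 (-0.83 ± 0.13, adjusted p = 0.0148). The feedback inhibitors Dusp6 (0.42, adjusted p = 0.558), Spry2 (0.30, adjusted p = 0.432) and Spry4 (-0.47, adjusted p = 0.127) and the target factor Etv5 (0.62, adjusted p = 0.398) did not pass. The median over the 17 measured members was -0.06. Etv4 was below 5.101 on all of the bright arrays.

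Markers of alveolar fibroblasts and lipofibroblasts, the cells beside the alveolar epithelium, fell in bright cells. Of 22 tested, 7 fell and 0 rose, against 2.6% in each direction over all genes tested, and the median was -0.84, with 2 of 22 above 0. In dim cells, where these markers are at higher levels, the median was 0.10. Itga8, the integrin chain that binds nephronectin, read 8.32 and 8.53 in bright SHAM, 7.81 and 7.82 in bright PNX, and 6.62 and 6.07 in bright PNX-dnFGFR (-2.08 ± 0.20, adjusted p = 0.00435). Npnt, nephronectin itself, read 10.57 and 10.97, then 10.2 and 10.86, then 9.6 and 9.25 (-1.34 ± 0.23, adjusted p = 0.0182). The amino acid transporter Slc7a10 fell from 5.54 and 5.45 to 4.1 and 4.25, by 1.32 log2 but by 0.39 with low values set to the limit. Inmt, an indolethylamine methyltransferase, fell from 12.22 and 12.27 to 11.5 and 11.58 (-0.70 ± 0.13, adjusted p = 0.0223).

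G0s2, an inhibitor of fat breakdown, and Macf1, a cytoskeletal linker, were the other markers called with Fgfr4, at -1.16 and -0.77. The lipid droplet protein Plin2 read 9.29 and 9.19 in SHAM against 9.4 and 9.04 (-0.02 ± 0.21, adjusted p = 0.961). Fabp4, the fatty acid carrier, was 1 of the 2 members above 0 (1.87, adjusted p = 0.251), with values of 9.58 and 6.19 on the 2 bright PNX arrays. This list had 0 calls without bright SHAM replicate 2, and 2 without bright PNX-dnFGFR replicate 2.

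**Figure D3:**
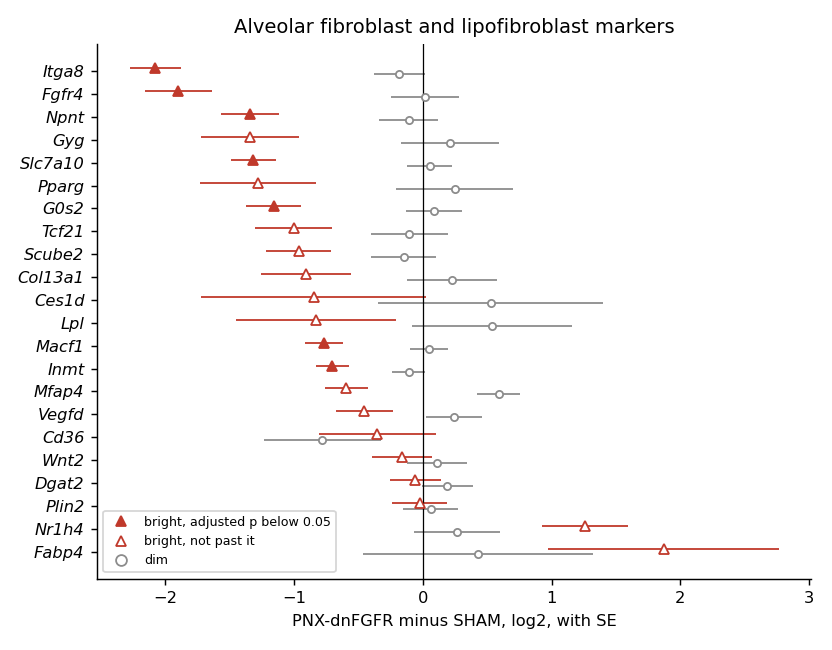
PNX-dnFGFR minus SHAM, log2 with its standard error from limma (2 arrays a side), for 22 markers of alveolar fibroblasts and lipofibroblasts in bright cells (triangles, filled where adjusted p is below 0.05) and dim cells (open circles). In bright cells 20 of the 22 triangles lie below 0, from -2.08 for Itga8, while the circles scatter around 0.

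Markers of other fibroblast states fell in part. Of 23 tested adventitial markers, genes of the fibroblasts around vessels and airways, 4 fell and 0 rose (median -0.54). Among them were the collagen maturation protein Pcolce2, from 11.49 and 11.6 to 10.53 and 10.62, and the ferritin receptor Scara5, from 9.86 and 9.9 to 8.17 and 8.72. Of 12 tested alveolar myofibroblast markers 3 fell (median -0.66): Aspn (-1.12), Stc1 (-1.14) and Hsd11b1 (-1.25), the enzyme that activates glucocorticoids. Aspn read 7.06 and 6.78 in SHAM, 6.83 and 7.16 in bright PNX, and 6.03 and 5.56 in bright PNX-dnFGFR.

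Of 19 tested contractile genes 1 rose, the calponin Cnn3 (1.28), and 1 fell, the myosin light chain kinase Mylk (-1.05). Acta2, smooth muscle actin and the usual mark of myofibroblasts, read 9.36 and 8.14 in bright SHAM, 9.73 and 10.11 in bright PNX, and 9.88 and 8.59 in bright PNX-dnFGFR. Its difference from SHAM was 0.48 ± 0.45 (adjusted p = 0.569), the arrays overlapped, and its weaker probe set differed by -0.35.

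Transcription factors of lung mesenchyme fell, 8 of 29 tested with 0 rising, against 2.6% in each direction over all genes tested, and the median was -0.33. They were the T-box factors Tbx2 (-1.42), Tbx4 (-0.94) and Tbx5 (-0.86), the orphan receptor Nr2f2 (-0.90), and Hoxb4, Hoxb5, Hoxb6 (-1.37, or -0.45 with low values set to the limit) and Hoxb7. Tbx4 read 8.05 and 7.91 in SHAM, 7.69 and 7.92 in bright PNX, and 7.28 and 6.79 in bright PNX-dnFGFR. Hoxb7 read 8.62 and 9.13, then 7.63 and 6.53, then 7.5 and 6.37 (-1.94 ± 0.48, adjusted p = 0.0495). So bright PNX was level with SHAM for Tbx4 and with PNX-dnFGFR for Hoxb7.

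The other large falls included Apod, the lipid carrier apolipoprotein D, from 10.11 and 10.81 to 7.91 and 8.36 (-2.33 ± 0.40, adjusted p = 0.0185), with bright PNX at 8.45 and 9.06. Mlana, the melanosome protein melan-A, fell the most (-2.34 ± 0.48, adjusted p = 0.0293). Scube1, a secreted and membrane-bound EGF-domain protein, read 7.53 and 6.77 in SHAM against 5.35 and 4.79, with bright PNX at 5.34 and 5.39. Gpnmb (-1.94), the cysteine dioxygenase Cdo1 (-1.89), the G protein regulator Rgs2 (-1.88), the potassium channel subunit Kcns3 (-1.84), the bHLH factor Msc (-1.83) and the VIP receptor Vipr2 (-1.71) fell too. Mlana, Apod, Scube1 and Gpnmb stood within 0.62 log2 of the PNX-dnFGFR mean in bright PNX, while bright PNX lay above that mean for Itga8, Fgfr4 and Cdo1 (bright PNX-dnFGFR minus bright PNX of -1.47, -1.83 and -1.14).

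Signals of other pathways fell or did not pass. In the TGF-beta and BMP group 3 of 31 tested fell, the latency protein Ltbp4 (-0.80) and the ligands Bmp4 (-1.08) and Bmp5 (-1.22). For this and the next lists the share over all genes tested was 2.6% in each direction. Bmp4 read 8.47 and 9.04 in SHAM, 8.3 and 9.0 in bright PNX, and 7.68 and 7.66 in bright PNX-dnFGFR. In the Wnt group 4 of 21 fell: the inhibitor Nkd2 (-1.06), the acyltransferase Porcn that Wnt ligands need for secretion (-1.13), the ligand Wnt2b (-1.41) and Dkk3 (-0.61). At an unadjusted p below 0.05 there were 3 higher and 6 lower, and 13 of 28 measured members were above 0. The secreted Wnt modulator Sfrp2 had the highest value of the group without passing, at 7.31 and 5.23 in SHAM, 10.24 and 5.71 in bright PNX, and 10.75 and 10.26 in bright PNX-dnFGFR (4.24 ± 1.23, adjusted p = 0.0779). In the IGF group 3 of 14 fell, among them the ligand Igf2 (-1.25) and the receptor substrate Irs1 (-0.70). None of 13 tested hedgehog genes passed in limma (1 higher and 5 lower at an unadjusted p below 0.05), with a median of -0.41. In the Notch group 0 of 9 passed (3 lower unadjusted), and of 3 tested PDGF genes 0 passed in limma (0 unadjusted).

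Matrix genes changed in both directions. Cthrc1, a secreted glycoprotein of injury-activated fibroblasts, rose from 4.32 and 4.73 to 7.58 and 7.02 (2.77 ± 0.24, adjusted p = 0.00391; 2.20 with low values set to the limit). Bright PNX had reached the same level at 7.27 and 7.2, with values of 2.71 for bright PNX minus bright SHAM (adjusted p = 0.00959) and 0.06 for bright PNX-dnFGFR minus bright PNX. Postn, periostin, rose from 6.12 and 6.16 to 8.06 and 7.39 (1.58 ± 0.24, adjusted p = 0.0138) and was at 7.88 and 8.26 in bright PNX. Ccn3 rose by 1.26 log2, and Sparcl1, an antiadhesive relative of SPARC, read 10.31 and 10.32 against 9.41 and 8.91 (-1.16). That made 3 rises and 1 fall among 22 matricellular genes.

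Lox, the lysyl oxidase that crosslinks collagen and elastin, rose from 9.35 and 9.31 to 10.8 and 10.49 (1.31 ± 0.17, adjusted p = 0.0103), with 10.19 and 10.28 in bright PNX. Loxl2 (0.81) and the lysyl hydroxylase Plod2 (1.09) also rose, 3 of 20 tested collagen-modifying enzymes, while Pcolce2 and Colgalt2 fell (-0.69 for Colgalt2, or -0.10 with low values set to the limit). The collagens themselves moved little: of 23 tested 1 fell, Col23a1 (-1.48), and Col1a1 and Col3a1 differed by 0.15 and 0.18 (adjusted p = 0.534 and 0.497). Of 14 elastic fibre genes Fbn2, a fibrillin of the growing lung, rose (2.33, or 0.59 with low values set to the limit) and Ltbp4 and Efemp1 fell. Elastin, Eln, read 12.24 and 12.32 against 12.05 and 11.88 (-0.31 ± 0.15, adjusted p = 0.252).

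Small leucine-rich proteoglycans, which coat collagen fibrils, all had negative values, 0 of 11 measured above 0 with a median of -0.73, or -0.22 with low values set to the limit. Ogn fell from 9.98 and 9.91 to 8.72 and 8.81 (-1.18 ± 0.18, adjusted p = 0.013) and Prelp from 10.6 and 10.77 to 9.58 and 9.51 (-1.14 ± 0.22, adjusted p = 0.0258), and Aspn was the other of 8 tested that fell. The abundant decorin gene, Dcn, read 12.21 and 12.18 against 11.98 and 12.17. Among 21 metalloproteinases and inhibitors Adamts9 (2.48) and Timp1 (1.53) rose and Mmp11 (-1.21) and Adamts10 (-0.84) fell.

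**Figure D4:**
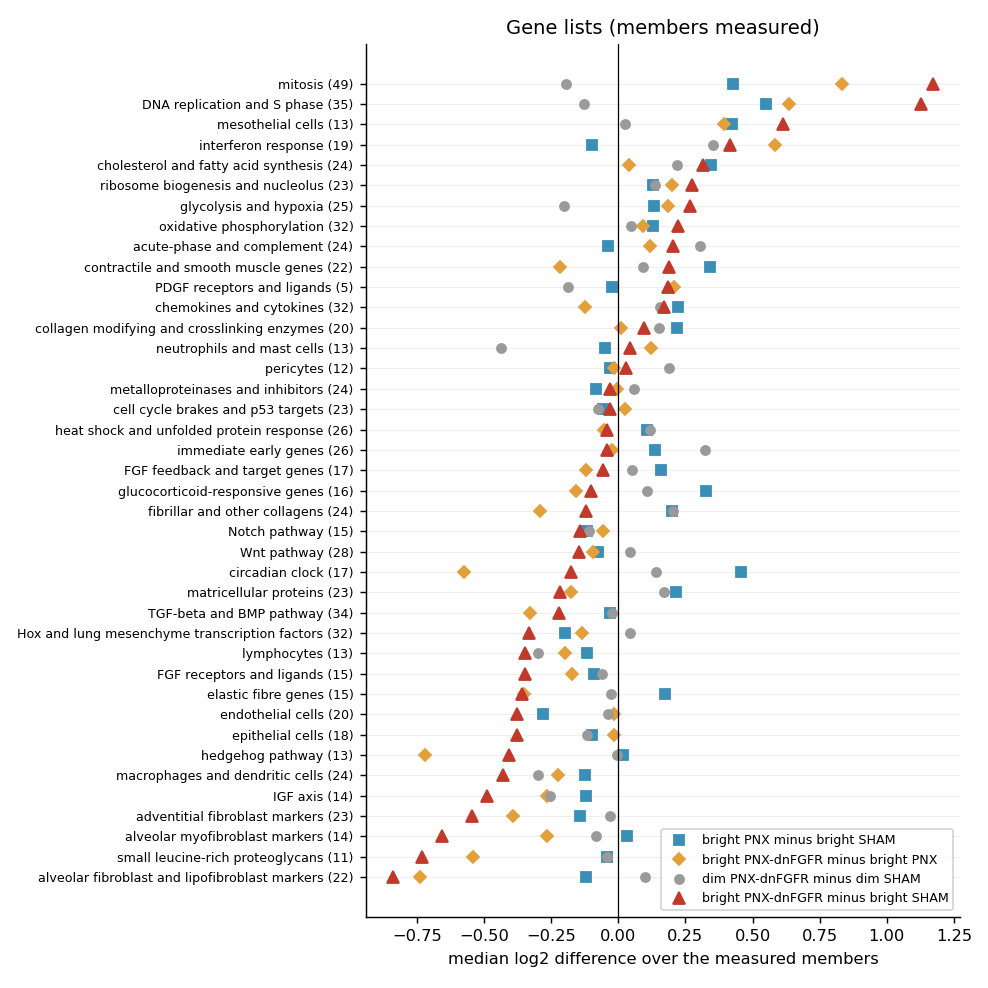
Median log2 difference over the measured members of 40 gene lists (numbers of members in brackets) for bright PNX-dnFGFR minus bright SHAM (triangles), bright PNX minus bright SHAM (squares), bright PNX-dnFGFR minus bright PNX (diamonds) and dim PNX-dnFGFR minus dim SHAM (circles); the first 3 share arrays. The triangles run from -0.84 for alveolar fibroblast markers to 1.17 for mitosis, where the circles are at 0.10 and -0.19.

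Inflammatory genes rose in part. Of 22 tested chemokines and cytokines 5 rose and 0 fell, against 2.6% in each direction over all genes tested. All 5 were chemokines that draw monocytes or neutrophils or, for Cxcl16, T cells. Over the 32 measured members 18 were above 0 and the median was 0.17, or 0.0 with low values set to the limit. Of those tested 6 were higher and 4 lower at an unadjusted p below 0.05. Ccl2 read 6.39 and 5.57 in SHAM, 7.51 and 6.64 in bright PNX, and 8.36 and 9.08 in bright PNX-dnFGFR (2.73 ± 0.48, adjusted p = 0.0196). Ccl7 rose by 2.15 ± 0.27 (adjusted p = 0.0094), Cxcl1 by 2.69 ± 0.64 (adjusted p = 0.0461), and Cxcl5 from 2.57 and 2.22 to 6.08 and 5.17, which with low values set to the limit was 0.52. Cxcl5 was above 5.101 on the bright PNX-dnFGFR arrays alone, so it was tested only because of them. Cxcl1 was another gene on which the bright PNX arrays split, at 7.76 and 5.22.

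Acute-phase and complement genes rose in 3 of 22 cases and fell in 1, against 2.6% in each direction over all genes tested. Complement factor B, Cfb, rose from 9.09 and 9.04 to 10.49 and 10.42 (1.39 ± 0.28, adjusted p = 0.0276), Cfi by 1.52 (0.94 with low values set to the limit) and the protease inhibitor Serpina3n from 10.36 and 10.32 to 11.57 and 11.17 (1.03 ± 0.21, adjusted p = 0.028). Il6ra, the receptor chain for interleukin 6, fell by 1.09 log2. No interferon gene of 17 tested passed in limma, with 5 higher and 0 lower at an unadjusted p below 0.05. Markers of immune cells gave these values beside the chemokines. Of 24 measured macrophage markers 7 were above 0 and the median was -0.43, with 1 of 22 tested higher, the endotoxin co-receptor Cd14 (2.15). The list's mean was 7.07 and 6.57 in SHAM and 6.52 and 6.56 in PNX-dnFGFR. Of the neutrophil and mast cell markers 1 of 6 tested rose, the decoy receptor Il1r2 (1.79), while S100a8 read 6.9 and 4.95 against 6.11 and 5.53 and S100a9 differed by 0.59. Of the 13 measured markers of this list 8 were above 0 and the median was 0.04, or 0.0 with low values set to the limit. Its mean was 4.26 and 3.76 in SHAM and 4.48 and 4.26 in PNX-dnFGFR.

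Sterol and fatty acid synthesis rose in 6 of 22 genes with 0 falling, against 2.6% in each direction over all genes tested. Of 24 measured members 21 were above 0 (median 0.32). The last enzyme of cholesterol synthesis, Dhcr7, rose from 7.21 and 7.26 to 8.2 and 8.29 (1.01 ± 0.12, adjusted p = 0.00851), and bright PNX had 8.1 and 8.02. The lanosterol demethylase Cyp51 (1.70), the fatty acid elongase Elovl6 (1.19), Idi1 (1.18) and Nsdhl (0.66) rose, as did Fdps. In dim cells Dhcr7, Cyp51, Idi1 and Nsdhl differed by 0.64, 0.53, 0.57 and 0.32 and Elovl6 by -0.43. Glycolysis and hypoxia genes gave 3 rises, hexokinase 2, Hk2 (1.21, or 0.71 with low values set to the limit), phosphofructokinase Pfkl (1.0) and the lactate exporter Slc16a3 (0.97), and 1 fall, Adm (-0.87), among 24.

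The remaining lists held few calls. Of 16 clock genes Nfil3 rose from 7.25 and 7.22 to 8.48 and 8.62, with bright PNX at 7.41 and 6.98, and Npas2 (-1.19) and Rora (-0.60) fell, while Per3 (-0.02, adjusted p = 0.963) and Arntl (-0.70, adjusted p = 0.222) did not pass. Per3 was at 8.28 and 8.3 in bright PNX, against 7.3 and 6.99 with the dominant-negative receptor and 7.38 and 6.96 in SHAM. A single call each came from 16 glucocorticoid-responsive genes (Ddit4, 1.54), 26 stress genes (Hspb1, 1.31), 32 respiratory chain genes (Sdhc, 0.70) and 23 ribosome biogenesis genes (Nop16, 0.70). Among all genes tested 2.6% were called higher, so a single call in lists of this size says little about the list.

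Of 15 tested epithelial and 13 endothelial markers 0 passed in limma, with 1 and 7 lower and 0 and 1 higher at an unadjusted p below 0.05, and medians of -0.38 in both. Among all 11073 genes tested 1184 were lower and 1343 higher at that unadjusted p. Scgb1a1, the secretory protein of club cells, split the arrays by replicate number, with 5.73 and 11.58 in bright SHAM and 6.19 and 11.19 in bright PNX-dnFGFR. Of 8 pericyte markers Postn rose and Cox4i2 fell (-0.71, or -0.42 with low values set to the limit). Of 10 lymphocyte markers Cd8a fell, from 5.3 and 5.06 to 4.43 and 4.31, a difference of -0.81, or -0.10 with low values set to the limit. What these cells add to the results above was not tested.

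The same conditions were compared in dim cells, which share no arrays with the bright ones, though 1 animal may have given cells to both gates. Here 2 genes passed (0.0181% of those tested; 1054 at an unadjusted p below 0.05), Serpina3n and Mpzl2. Over the 288 genes higher in bright cells the dim median was 0.06, with 166 above 0, and over the 288 lower genes it was -0.14, with 213 below 0. Across all genes tested, which are not independent replicates, the bright and dim differences had a Pearson r of 0.188.

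The difference between the gates itself passed for 14 genes (0.126%; 1401 at an unadjusted p below 0.05). In 9 of them the rise in bright cells was the larger: Tnfrsf11b, Birc5, Sema4a, Cthrc1, Stmn2, Ptprn, Cenpm, Il1r2 and Elovl6 rose in bright cells and had dim values from -0.93 (Birc5) to 0.33 (Cthrc1). The histone gene H3c4 rose in bright cells (1.42) against -1.0 in dim. Stmn2, which binds tubulin, read 5.17 and 5.01 in bright SHAM, 5.59 and 4.99 in bright PNX, and 7.73 and 7.49 in bright PNX-dnFGFR, and was the gene called between the dominant-negative group and bright PNX (2.32, adjusted p = 0.0245). The centromere protein gene Cenpm read 5.0 and 4.76 in SHAM, 6.07 and 5.54 in bright PNX, and 7.37 and 7.13 in bright PNX-dnFGFR. Tshz3 and the ectonucleotidase Entpd2 fell in bright cells (-0.74 and -1.33) against dim values of 0.81 and 0.73. With 1 of the 8 arrays left out, between 0 and 6 genes were called.

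**Figure D5:**
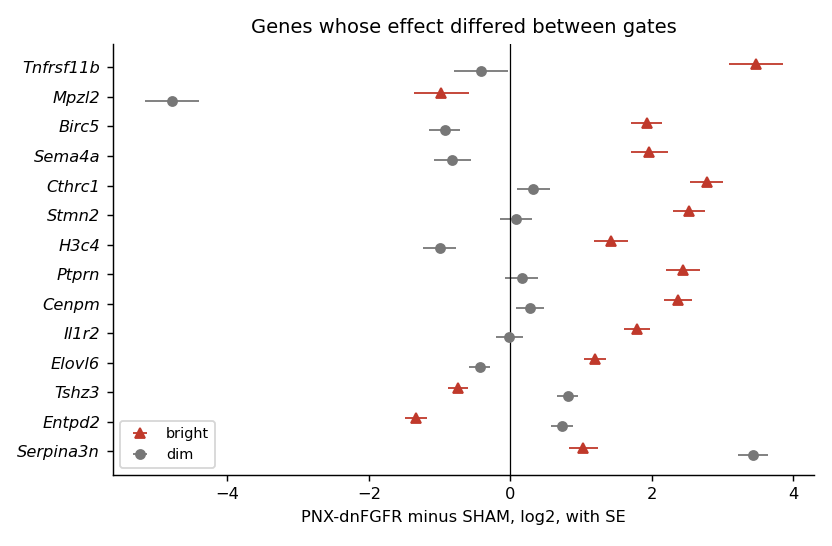
PNX-dnFGFR minus SHAM, log2 with its standard error from limma (2 arrays a side), in bright cells (triangles) and dim cells (circles) for the 14 genes whose difference between gates passed. Serpina3n has the larger rise in dim cells (3.43 against 1.03), Mpzl2 the larger dim value (-4.78 against -0.98), and Tnfrsf11b stands furthest apart the other way (3.47 against -0.41).

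The called genes were also read as bright minus dim cells after plain pneumonectomy, in arrays of neither group compared, which enter the comparison only through the shared estimate of the spread. Genes higher in bright PNX-dnFGFR were mostly higher in the bright gate, 255 of 288 (88.5%) with a median of 0.69 log2, where 53.5% of all genes tested were above 0. Of the 288 lower genes 221 were lower in the bright gate, with a median of -0.57. In bright PNX minus bright SHAM, which shares SHAM arrays with the main comparison, 273 of the higher genes were above 0 (median 0.55). There 278 of the lower genes were below 0 (median -0.35). The gate values after pneumonectomy hold these shifts, so they do not give the difference between gates before the operation. Across all genes tested Pearson's r between the difference from SHAM and the gate difference was 0.367.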

How the data were processed

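The deposited values are log2 signals of 12 Affymetrix mouse arrays, made by the authors with RMA per the submitters' processing notes; the sources used here give no version or options. They ran from 1.5 to 13.05, with array medians of 5.06 to 5.13 and 0 missing values, and were used as they are. RMA gives low genes a floor, so differences from unexpressed levels are uncertain; the number of arrays limits the precision.

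Of 45141 probe sets 104 controls were left out; 28898 had 1 gene in the platform annotation, 551 several and 15588 none. Each of 17097 genes was represented by its probe set with the highest mean (7180 had several; of 55 named genes called with several, 50 had all on 1 side of 0). Genes above 5.101 on at least 2 arrays were tested (11073). Some, among them Nusap1, Cxcl5, Calcb, Cdh2, Hk2 and Fbn2, reached 2 arrays only with the bright PNX-dnFGFR arrays, where they are high. A mean per group over all 12 arrays was fitted with limma 3.58.1 (R 4.3.3), with Benjamini-Hochberg adjustment over all genes tested and a threshold of 0.05; the median residual SD was 0.199. The fit was tested on simulated data.

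Members, lists and tests were chosen with earlier results of these data known. Named genes are the 12 largest called rises and falls with no overlap of arrays and no predicted genes, up to 5 called members per list by adjusted p (or the 2 highest where none passed), the 2 highest markers of other cell types, receptor, contractile, matrix, clock and FGF target genes always taken, and genes differing between gates. Other list members with values were chosen after those were seen: Emcn, Sox17, Prox1, Foxj1, Cdh1, Msln, Muc16, G0s2, Macf1, Fabp4, Dcn, Fdps, Hoxb4, Hoxb6, Scgb1a1, Bnc1, Wt1 and Sfrp2. Alternatives were other filters, normalization, probe sets, variance models, sets of arrays, a replicate block, low values set to 5.101 and each array left out; leaving out bright PNX arrays and array weights were added after the data were seen. Promoter windows are RefSeq's, GRCm38.p6, the first per gene.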

Additional observations from a re-analysis of the deposited data

Results flagged for a closer look

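The effect of PNX-dnFGFR against SHAM differed between bright and dim cells for 14 genes by the test of the difference itself, in limma with adjustment over all genes. The bright effect was higher by 3.89 log2 for Tnfrsf11b, 2.86 for Birc5, 2.79 for Sema4a, 2.45 for Cthrc1, 2.44 for Stmn2, 2.42 for H3c4, 2.28 for Ptprn, 2.09 for Cenpm, 1.80 for Il1r2 and 1.63 for Elovl6. For Mpzl2 the value of 3.81 comes from dim cells, where SHAM read 6.72 and 7.99 and PNX-dnFGFR 2.63 and 2.5, against 3.12 and 4.0 and 2.5 and 2.67 in bright cells. The difference was -1.55 for Tshz3, -2.06 for Entpd2 and -2.40 for Serpina3n. Serpina3n rose in both gates, in dim cells from 7.92 and 8.06 to 11.61 and 11.23, where bright SHAM was already at 10.36 and 10.32. Groups of 2 arrays are too small to look for an outlying sample.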

How the results depend on the processing

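None of the 119 called genes taken by the naming rule changed direction under any alternative run. The arrays compared did not overlap for any called gene, so most of these runs could not have changed a direction. Only another normalization or another choice of probe sets could have done so. Lack of overlap was common: both PNX-dnFGFR arrays lay above both SHAM arrays for 31.4% of all genes tested and below them for 27.0%. Against 576 calls (288 higher, 288 lower), the 6 bright arrays alone gave 96 (64 and 32), array weights 1417 (760 and 657), and leaving out either bright PNX array 910 (501 and 409); setting values below 5.101 to that limit gave 451 higher. Leaving out 1 array of the comparison gave 5 to 129 calls, 4 to 61 higher and 1 to 83 lower. The replicate block gave 610 calls (333 higher, 277 lower). Same-numbered samples did not all deviate together (correlations from -0.185 to 0.347 over pairs of groups, 0.347 between the groups compared), so the numbers were not taken to pair the samples. Replication calls, 14, became 6 with the 6 bright arrays and 0 to 4 with an array of the comparison left out (16 without a bright PNX array). Mitosis calls, 15, became 9 under the stricter filter (6.762), 6 with the 6 bright arrays, 26 with array weights and 0 to 5 with an array of the comparison left out (18 without a bright PNX array). Alveolar fibroblast calls, 7, became 2 with the 6 bright arrays, 12 with array weights and 0 to 5 with an array of the comparison left out (10 without a bright PNX array). In dim cells 2 calls became 1 under the stricter filter or with low values set to the limit, and up to 8 with an array left out (5 without PNX-dnFGFR replicate 2, 8 without SHAM replicate 2). The 14 differences between gates became 8 with no filter, 22 under the stricter filter, 32 with a variance trend, 41 with the 8 arrays alone, 35 with low values set to the limit, and 0 to 6 with an array left out. Where arrays were left out, fewer samples carry the test; the cause of the other shifts was not tested. Low signals limit the sizes: 63 of the higher genes had both SHAM arrays below 5.101, and 29 of the lower genes both PNX-dnFGFR arrays.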
